A study of Mus musculus with 48 samples.

Results

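Hedgehog signalling genes and genes of the villus mesenchyme were followed in the duodenum and ileum of mice from birth to 4 weeks of age. The genes were taken by symbol: the ligands Shh and Ihh, the receptor Ptch1, the transcription factors Gli1 and Gli2, the decoy receptor Hhip, the forkhead factors Foxf1 and Foxl1, the BMP ligand Bmp4 and the PDGF receptor Pdgfra. These 10 genes were found among 54532 gene identifiers, each under 1 identifier, and all 10 passed the filter on low counts.

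In the developing and growing gut, hedgehog ligands are made by the epithelium and act on the underlying mesenchyme. Binding of a ligand to Ptch1 releases Smo, which lets GLI transcription factors switch on targets that include Ptch1, Gli1 and Hhip themselves. Hedgehog input to the mesenchyme is known to raise Foxf1, Foxl1 and Bmp4, and clusters of Pdgfra-positive cells beneath the epithelium help to shape villi.

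Total RNA was sequenced from 2 cm pieces of C57Bl/6J mouse intestine, taken next to the pylorus as duodenum or next to the ileocecal junction as ileum, at day 0, 2, 4, 6 and 8 and at week 2, 3 and 4. Each region and age had 3 numbered samples, 48 in all, from untreated mice of both sexes. The labels call the housing standard germ-free and say that pups stayed with the dam until day 21, then received chow. Nothing states that the 3 samples of a group came from separate animals, so the p-values measure the spread between these samples, which may be partly technical.

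The samples labelled number 3 at day 6 went against their labels and were left out of the main fit, which held 46 samples. Pdx1, a transcription factor of the proximal gut and pancreas, was at 0.115 counts per 1000000 library-scaled counts (CPM) in the one labelled duodenum and at 14.6 CPM in the one labelled ileum. It ranged from 1.81 to 25 CPM in the other 23 duodenum samples and from 0.0678 to 6.51 CPM in the other 23 ileum samples. The day 6 groups therefore had 2 samples each. Total counts per sample lay between 23173093 and 65042327 in the duodenum, and between 16824021 and 42029626 in the ileum. Mitochondrial transcripts took 16.48% to 29.77% and 13.11% to 35.23% of them.

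The labels call the pieces whole thickness. Summed over its 6 markers and divided by transcript length, the smooth muscle signal was 1.86 to 16.9 CPM per kilobase in the duodenum and 4.96 to 71.7 in the ileum. The 8 epithelial markers summed to 1503 to 4087 and 1404 to 4563 CPM per kilobase, so muscle transcripts were scarce beside epithelial ones in every sample. In bulk tissue, fewer cells of a type and less RNA per cell cannot be told apart, and this holds for every gene below, epithelial or mesenchymal.

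Ranked by CPM per kilobase of exon, Ihh was the most abundant of the 10 genes in both regions at day 0, day 8 and week 4. Day 0 duodenum held 11.9 ± 2.25 CPM per kilobase of it, and day 0 ileum 10.6 ± 1.9 (SD, n = 3). In the day 0 duodenum the next levels per kilobase were Pdgfra at 4.36 ± 1.08, Foxf1 at 3.27 ± 0.994, Bmp4 at 3.16 ± 0.594 and Ptch1 at 2.06 ± 0.309. Pdgfra, Foxf1 and Bmp4 lay within each other's spread. Hhip, Foxl1 and Gli1 followed at 0.71 ± 0.179, 0.286 ± 0.0397 and 0.24 ± 0.073, of which the last pair lay within their spread. Gli2 at 0.0661 ± 0.00857 and Shh at 0.0642 ± 0.0275 were lowest and did not differ beyond their spread. At week 4 in the duodenum, Ihh at 14.9 ± 2.97 stood above Ptch1 at 1.19 ± 0.116 CPM per kilobase, and Pdgfra had dropped to sixth place at 0.111 ± 0.0416.

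**Figure D1:**
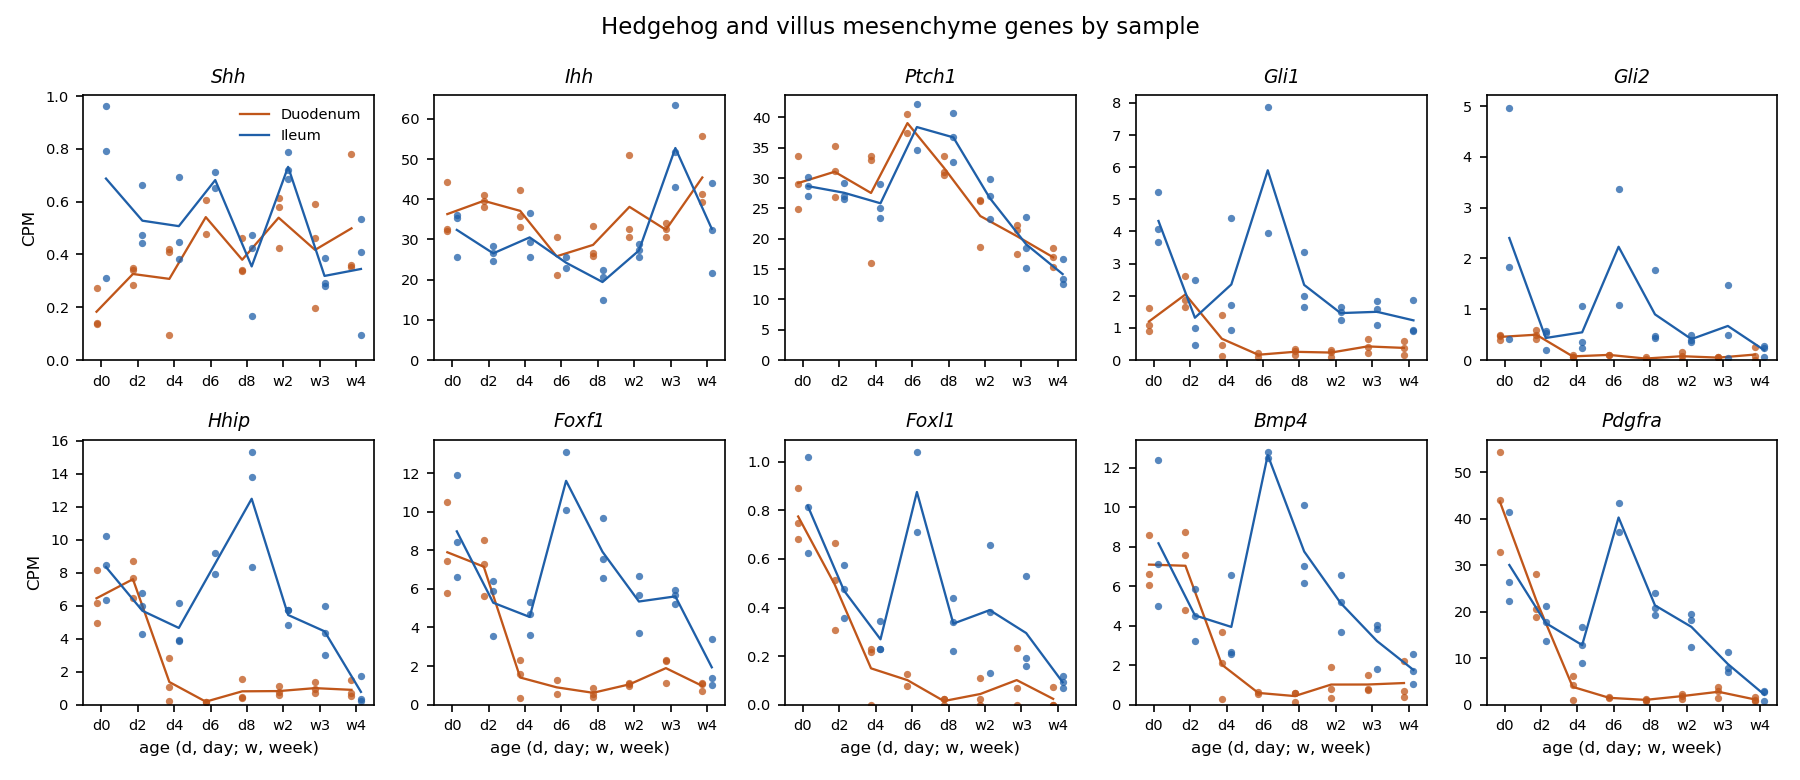
Level of each gene in CPM (linear axis from 0, own scale per panel) against age, with 1 point per sample and a line through the group means, duodenum in orange and ileum in blue. Gli1, Gli2, Hhip, Foxf1, Foxl1, Bmp4 and Pdgfra are low in the duodenum from day 6 on and stay higher in the ileum up to week 3, while Ptch1 follows nearly the same course in both regions.

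The ligand Ihh (chromosome 1, 74945315 to 74951672, minus strand, GRCm38) was present in every sample, at 21.1 to 55.8 CPM in the duodenum and 15 to 63.5 CPM in the ileum. In the ileum its 3 samples read 35.3, 25.7 and 36.1 CPM at day 0 and 15, 20.7 and 22.5 CPM at day 8. All day 8 samples lay under all day 0 samples, and the log2 change was -0.74 ± 0.21 (± SE throughout for log2 changes, n = 3 against 3, edgeR adjusted p = 0.0109). Week 2 samples then read 25.6, 28.8 and 27.3 CPM, and week 3 samples 43, 63.5 and 51.7 CPM. This rise of 0.95 ± 0.21 (adjusted p = 5.28e-04) had no overlap between the ages. At week 4 the ileum samples spread over 44, 32.3 and 21.6 CPM, lower than at week 3 by a log2 change of -0.69 ± 0.21 (adjusted p = 0.0193), with overlap. The sum of the 8 epithelial markers in the ileum was 4573 ± 230 CPM at week 2 and 9479 ± 1278 CPM at week 3 (SD, n = 3). Of these markers 3 passed as higher in that step and 0 as lower, with a median log2 change of 0.38. The part of epithelial content in the rise of Ihh was not tested.

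The Ihh steps other than the week 3 rise rested on single samples. Without ileum day 0 sample 3 or ileum day 8 sample 1, the adjusted p of the first fall was 0.0562 or 0.101. Without ileum week 3 sample 2 or ileum week 4 sample 3, that of the week 4 fall was 0.13 or 0.128. With only the week 3 and week 4 ileum samples in the fit it was 0.145. In the duodenum, Ihh read 32, 32.7 and 44.2 CPM at day 0 and 39.2, 55.8 and 41.2 CPM at week 4, and this difference of 0.32 ± 0.21 did not pass the test (adjusted p = 0.223).

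Shh (chromosome 5, 28456815 to 28467256, minus strand), the other ligand, had only 3 to 34 counts per sample. In the duodenum it read 0.139, 0.137 and 0.273 CPM at day 0 and 0.782, 0.361 and 0.354 CPM at week 4. The groups did not overlap, and the rise of 1.38 ± 0.52 passed the test (adjusted p = 0.0309). That call was lost without duodenum day 0 sample 1 (0.111), day 0 sample 2 (0.0948) or week 4 sample 1 (0.223), with library totals as scaling (0.0644), without the low-count filter (0.0752) and with only the compared groups (0.0581). Ileum samples of Shh read 0.961, 0.793 and 0.309 CPM at birth and 0.408, 0.0931 and 0.534 CPM at the last age, with overlap. Their log2 change of -1.08 ± 0.53 did not pass (adjusted p = 0.101), but did with library totals (0.0407), without ileum day 0 sample 3 (0.0351) and without ileum week 4 sample 3 (0.0419). Shh overlaps the antisense gene model 9530036O11Rik. Whether counting used strand is not given in the sources used here, and the same limit applies to Gli1, which overlaps Arhgap9, and to Bmp4, which overlaps Gm15217. It also applies to Pdgfra, which overlaps Gm42802 and Gm42803. Ptch1 overlaps the gene model A930032L01Rik on its own strand, where strand would not tell them apart.

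The region before the transcription start is shown for the receptor Ptch1, the decoy Hhip and the factor Gli2, because Hhip and Gli2 fell by day 8 in the duodenum and Ptch1 did not pass that test (0.12 ± 0.19, adjusted p = 0.647). RefSeq start sites on GRCm38.p6 were available for 6 of the 10 genes. The windows hold the 250 bases before the start, all from the minus strand: chr13:63565736-63565985, inside the longer Ptch1 gene model and outside every exon, chr8:80058009-80058258, and chr1:119053620-119053869, both just upstream of their gene. Capitals mark a match to a GLI motif.
Ptch1: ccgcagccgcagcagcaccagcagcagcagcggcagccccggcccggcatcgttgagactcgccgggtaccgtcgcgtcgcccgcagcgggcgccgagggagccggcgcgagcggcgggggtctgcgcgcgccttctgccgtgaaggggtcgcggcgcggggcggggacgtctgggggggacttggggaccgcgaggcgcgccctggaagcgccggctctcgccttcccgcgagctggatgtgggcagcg
Hhip: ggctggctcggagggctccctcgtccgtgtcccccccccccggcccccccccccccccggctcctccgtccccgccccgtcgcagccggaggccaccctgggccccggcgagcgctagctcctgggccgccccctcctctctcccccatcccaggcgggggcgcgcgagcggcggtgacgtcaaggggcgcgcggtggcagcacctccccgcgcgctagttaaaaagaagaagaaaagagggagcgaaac
Gli2: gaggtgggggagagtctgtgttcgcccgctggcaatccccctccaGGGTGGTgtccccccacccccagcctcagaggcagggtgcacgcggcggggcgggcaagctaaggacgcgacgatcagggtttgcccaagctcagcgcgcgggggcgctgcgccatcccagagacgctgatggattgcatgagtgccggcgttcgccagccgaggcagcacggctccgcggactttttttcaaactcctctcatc
The GLI motif GACCACCCA and the core within it, ACCACCC, were searched on both strands. The full motif occurred in 0.225% of 32851 promoter windows of this length and the core in 3.92%. Of the 6 windows, that of Gli2 alone held the core, with its letters reading GGGTGGT on the printed strand, 205 bases before the start. The other 5 windows lack these letters, which says nothing of sites elsewhere.

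The receptor Ptch1 (chromosome 13, 63508328 to 63573598, minus strand) had overlapping samples in both regions at every age. At day 0 it read 24.9, 29 and 33.6 CPM in the duodenum and 27.1, 28.7 and 30.2 CPM in the ileum. At day 8 it read 30.5, 33.6 and 31 CPM in the duodenum and 36.8, 32.6 and 40.7 CPM in the ileum. By week 4 the samples were at 15.3, 17 and 18.5 CPM and at 13.4, 16.6 and 12.5 CPM, below every day 0 sample of their region. Week 4 was lower than day 0 by log2 changes of -0.79 ± 0.19 in the duodenum (adjusted p = 9.74e-04) and -1.01 ± 0.19 in the ileum (adjusted p = 4.70e-05). Averaged over ages, the ileum minus duodenum difference was -0.04 ± 0.07 on the log2 scale (adjusted p = 0.683, 23 samples against 23).

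Hhip (chromosome 8, 79965851 to 80058006, minus strand), which binds and sequesters hedgehog ligands, took different courses in the regions (region by age interaction, adjusted p = 2.29e-05). Duodenum samples read 6.18, 4.96 and 8.18 CPM at day 0, 1.08, 0.222 and 2.8 CPM at day 4 and 0.417, 0.464 and 1.53 CPM at day 8. The log2 change at day 8 was -3.01 ± 0.55 (adjusted p = 3.20e-05), and the groups were far apart. Ileum samples read 6.32, 8.48 and 10.2 CPM at day 0 and 15.3, 8.31 and 13.8 CPM at day 8, a difference of 0.57 ± 0.49 that did not pass the test (adjusted p = 0.457). Week 3 ileum samples were at 3, 4.34 and 5.98 CPM, and week 4 samples, all lower, at 0.233, 1.74 and 0.334 CPM (log2 change -2.36 ± 0.57, adjusted p = 0.00293).

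Gli1 (chromosome 10, 127329882 to 127341974, minus strand), a transcription factor whose own transcription reports hedgehog input, was low throughout. Duodenum samples read 1.61, 0.911 and 1.08 CPM at day 0, 0.154, 0.337 and 0.274 CPM at day 8 and 0.156, 0.584 and 0.389 CPM at week 4. The log2 change was -2.22 ± 0.62 at day 8 (adjusted p = 0.0038) and -1.68 ± 0.62 at week 4 (adjusted p = 0.0272). The week 4 call was lost without duodenum day 0 sample 1 (0.102), week 4 sample 1 (0.155) or week 4 sample 3 (0.0648), and without the low-count filter (0.0557). With all 48 samples the adjusted p was 0.0509 at day 8 and 0.144 at week 4. In the ileum Gli1 read 3.66, 4.09 and 5.23 CPM at day 0 and 0.932, 0.9 and 1.87 CPM at week 4, a log2 change of -1.84 ± 0.58 (adjusted p = 0.01, 0.0525 without ileum week 4 sample 2 and 0.092 with all 48 samples).

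Gli2 (chromosome 1, 118834132 to 119053619, minus strand), the main activator among the GLI factors, had 0 to 26 counts per duodenum sample. It read 0.388, 0.501 and 0.474 CPM there at day 0 and 0, 0.0633 and 0.0228 CPM at day 8, a log2 change of -3.80 ± 1.04 (adjusted p = 0.00302). At week 4 it read 0, 0.25 and 0.0707 CPM, which did not pass (-2.04 ± 0.91, adjusted p = 0.0707, and 0.0189 without duodenum week 4 sample 2). Its ileum samples scattered widely at day 0, at 0.406, 4.97 and 1.83 CPM, all above the 0.233, 0.279 and 0.0668 CPM of week 4. That log2 change was -3.51 ± 0.87 (adjusted p = 0.00124).

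Foxf1 (chromosome 8, 121084386 to 121088144, plus strand), a forkhead factor of gut mesenchyme, read 5.77, 7.42 and 10.5 CPM in the day 0 duodenum and 5.65, 7.29 and 8.51 CPM at day 2. At day 4 the samples were at 1.59, 0.32 and 2.3 CPM and at day 8 at 0.396, 0.569 and 0.868 CPM. The values thus parted between day 2 and day 4, a step for which no test was made. The day 4 samples are absent from the authors' normalized signal. Day 8 was lower than day 0 by a log2 change of -3.69 ± 0.46 (adjusted p = 3.89e-08). In the ileum the samples read 6.61, 8.43 and 11.9 CPM at day 0, 7.53, 6.58 and 9.65 CPM at day 8 and 5.2, 5.94 and 5.69 CPM at week 3. At week 4 they read 0.991, 3.41 and 1.4 CPM, below every earlier ileum sample. The log2 change from week 3 to week 4 was -1.48 ± 0.43 (adjusted p = 0.0133), with an adjusted p of 0.0725 without ileum week 4 sample 1 and 0.0635 without sample 3.

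Foxl1 (chromosome 8, 121127940 to 121130644, plus strand), a forkhead factor of subepithelial cells, was the rarest of the 4 mesenchymal genes by CPM per kilobase at day 0. Its 3 duodenum samples held 91 counts together at day 0, 2 at day 8 and 2 at week 4. Scaled for library size, day 0 over day 8 was a ratio of 55.1, with a 95% interval from counting error alone of 14.8 to 462, and day 0 over week 4 was 41.4 (11.1 to 347). In the ileum it read 0.813, 0.626 and 1.02 CPM at day 0 and 0.117, 0.0931 and 0.0668 CPM at week 4, a log2 change of -3.10 ± 0.84 (adjusted p = 0.00287). Foxf1 and Foxl1 both lie inside the readthrough gene model Gm20388.

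Bmp4 (chromosome 14, 46383520 to 46390669, minus strand), a BMP ligand made by mesenchyme, read 6.63, 6.06 and 8.6 CPM in the day 0 duodenum and 0.132, 0.569 and 0.594 CPM at day 8. The log2 change was -4.03 ± 0.66 (adjusted p = 6.73e-06), without overlap. In the ileum it read 4.99, 7.14 and 12.4 CPM at day 0 and 7.04, 6.14 and 10.1 CPM at day 8, a difference of -0.08 ± 0.56 (adjusted p = 0.949). Week 4 ileum samples were at 1.05, 1.68 and 2.54 CPM, lower than at day 0 by a log2 change of -2.23 ± 0.61 (adjusted p = 0.00334).

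Pdgfra (chromosome 5, 75152292 to 75198215, plus strand), the PDGF receptor of villus mesenchymal cells, went through the widest range of CPM of the 10 genes in the duodenum. Duodenum samples read 32.8, 44 and 54.4 CPM at day 0, 18.8, 20.5 and 28.1 CPM at day 2, 6.25, 1.06 and 4.14 CPM at day 4 and 0.769, 1.24 and 1.03 CPM at day 8. Every day 2 sample was under every day 0 sample, and every day 4 sample under every day 2 sample. Day 8 was 43-fold lower than day 0 (log2 change -5.43 ± 0.47, adjusted p = 4.96e-11). In the ileum the samples read 22.4, 26.4 and 41.4 CPM at day 0, 19.4, 20.7 and 24 CPM at day 8 and 19.5, 18.2 and 12.5 CPM at week 2. Week 3 samples read 11.4, 7 and 7.81 CPM, and week 4 samples 0.874, 2.89 and 2.67 CPM. Day 8 did not differ from day 0 by the test (-0.50 ± 0.38, adjusted p = 0.391), and the log2 change from week 3 to week 4 was -2.00 ± 0.43 (adjusted p = 8.13e-04).

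The late duodenum step of Pdgfra was small beside these. Week 3 samples read 3.83, 2.93 and 1.52 CPM and week 4 samples 1.56, 1.03 and 0.743 CPM, which overlap, and the log2 change was -1.30 ± 0.44 (adjusted p = 0.0435). That call was lost without duodenum week 3 sample 1 (0.227) or 2 (0.0827), without week 4 sample 2 (0.154) or 3 (0.169), without the low-count filter (0.106) and with all 48 samples (0.352).

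Counted together, 9 of the 10 genes passed the test for any effect of age in the duodenum, where 67.4% of the 21986 genes tested did, and 9 in the ileum, where 58.7% did. Shh was the exception in both regions. With all 48 samples 4 genes passed in the ileum. At day 8 against day 0, 7 of the 10 were lower in the duodenum, against 19.2% of all genes, and 1, Ihh, in the ileum, against 10.7%. The median log2 change of the 10 was -3.35 in the duodenum and -0.62 in the ileum, beside -0.06 and 0.01 over all genes. At week 4 against day 0, 7 were lower in the duodenum (20.1% of all genes) and 1, Shh, was higher (20.4%), while 8 were lower in the ileum (20.4%). The duodenum changes at week 4 were -5.27 ± 0.47 for Pdgfra, -3.03 ± 0.45 for Foxf1, -2.88 ± 0.56 for Hhip and -2.73 ± 0.62 for Bmp4 (adjusted p from 1.37e-11 to 5.09e-04). The medians were then -2.39 and -2.20, beside -0.02 and 0.08 over all genes. Comparisons with the same region's day 0 share those samples.

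**Figure D2:**
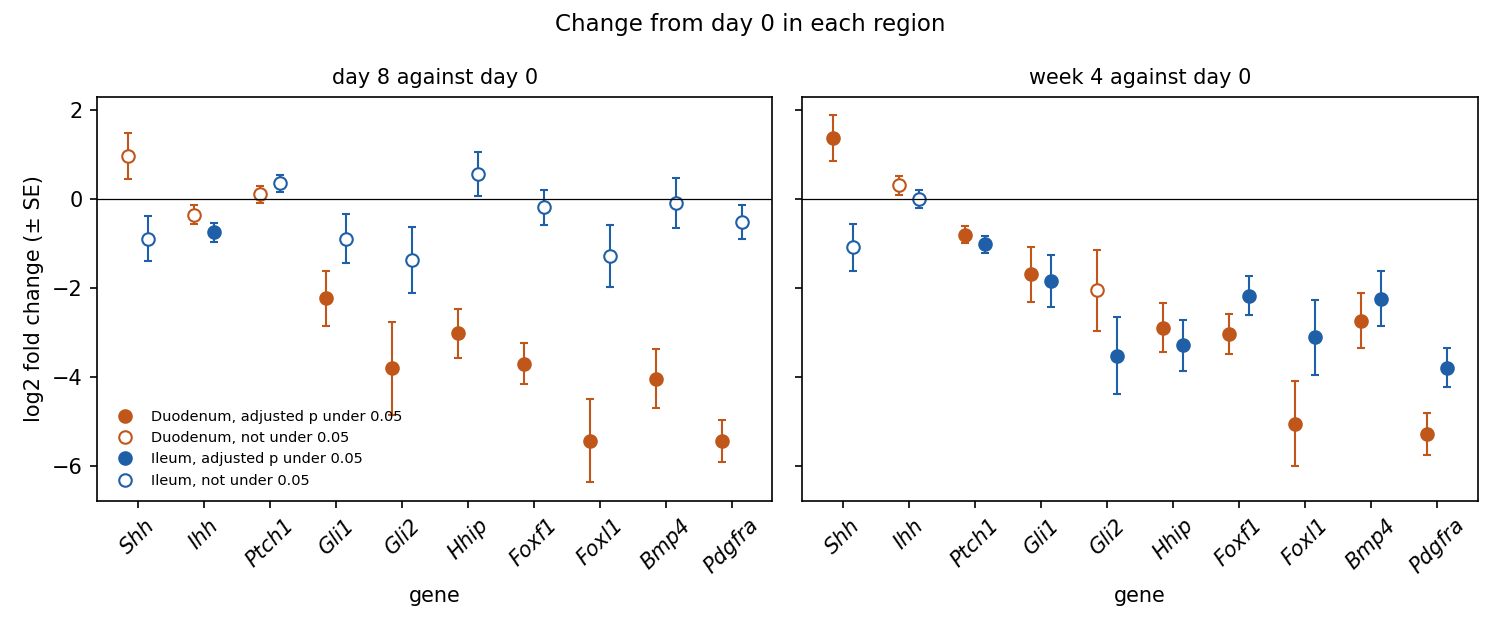
Log2 fold change against day 0 (vertical axis, bars ± SE from edgeR) of each gene at day 8 (left) and week 4 (right), duodenum in orange and ileum in blue, filled where the adjusted p was under 0.05. At day 8 the genes from Gli1 to Pdgfra lie between -2.22 and -5.43 in the duodenum and between -1.37 and 0.57 in the ileum; the duodenum points of Foxl1 rest on 2 counts in the later group.

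Between day 8 and week 3 few steps passed. None of the 10 genes did for week 2 against day 8 in the duodenum, where 15.7% of all genes passed edgeR's test, or in the ileum, where 6.64% did. At an unadjusted p under 0.05 there were 1 and 3 genes, and DESeq2 called 0 in both. None passed for week 3 against week 2 in the duodenum (18.3% of all genes), where edgeR gave 0 genes at an unadjusted p under 0.05 and DESeq2 called 0. In the ileum the rise of Ihh was the 1 step that passed, beside 12.9% of all genes higher. There edgeR gave 4 genes at an unadjusted p under 0.05, and DESeq2 called 1. Falls of Ptch1, Pdgfra and Shh did not pass in edgeR (adjusted p = 0.0564, 0.0701 and 0.0799). At week 4 against week 3, Pdgfra alone was lower in the duodenum (4.96% of all genes), and Ihh, Hhip, Foxf1 and Pdgfra were lower in the ileum (7.81%). With all 48 samples Hhip, Foxf1 and Pdgfra lost that call (adjusted p = 0.0952, 0.174 and 0.108), and with only the compared groups Ihh, Hhip and Foxf1 did (0.145, 0.0648 and 0.0687). Mitochondrial transcripts moved with the ileum step, from 14.57% to 16.91% of counts at week 3 to 22.12% to 35.23% at week 4. The immune marker sum was 24.1 ± 2.42 CPM before and 178 ± 89.9 CPM after this step, without overlap. It had been 130 ± 14.8 CPM in the ileum at week 2. Of the 4 immune markers 3 passed as higher in the last step and 1 as lower. The smooth muscle sum was 46.6 ± 9.18 CPM at week 3 and 108 ± 80.8 CPM at week 4, and that of fibroblasts 160 ± 36.5 and 207 ± 67.9 CPM, both with overlap. The endothelial sum went the other way, from 37.4 ± 7.17 to 24.9 ± 15.1 CPM, also with overlap. Of the 4 endothelial markers 3 passed as lower, with a median log2 change of -2.08. The part of these values in the step was not tested.

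Averaged over the 8 ages, 7 genes were higher in the ileum, against 31.9% of all genes, and 1, Ihh, was lower there, against 30.2%. The log2 differences, ileum minus duodenum, were 2.66 ± 0.34 for Gli2, 2.19 ± 0.22 for Gli1, 2.02 ± 0.20 for Hhip, 1.98 ± 0.15 for Pdgfra, 1.85 ± 0.31 for Foxl1, 1.74 ± 0.22 for Bmp4 and 1.73 ± 0.16 for Foxf1, with adjusted p from 1.74e-13 for Pdgfra to 3.49e-06 for Foxl1. That of Ihh was -0.24 ± 0.08 (adjusted p = 0.00621), and with library totals as scaling it was -0.06 (adjusted p = 0.467). At day 2 the means of the 7 genes went the other way, by -0.88 for Gli1 to -0.04 for Foxl1, with overlapping samples. Pdgfra at day 0 (-0.56) and Hhip at week 4 (-0.55) did so too. Averaged over the ages again, the median of the 10 was 1.79, beside 0.08 over all genes. Marker lists of other mesenchymal and gut wall cells were higher in the ileum as well: 8 of 8 fibroblast markers passed in that direction with a median of 2.00, 6 of 6 smooth muscle markers (1.95), 5 of 5 of enteric neurons and glia (1.65), 4 of 4 endothelial (1.04) and 3 of 4 immune markers (0.40). Of 8 epithelial markers 1 was higher and 2 lower (-0.08), and 6 of 7 pancreatic acinar markers were lower (-5.97). The part of these cell types in the regional difference was not tested.

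The regional difference depended on age for 8 of the 10 genes (region by age interaction, 22.4% of all genes). Its adjusted p was 5.93e-08 for Pdgfra, 1.75e-05 for Foxf1, 2.29e-05 for Hhip, 4.26e-04 for Bmp4 and 0.00227 for Gli1. Ihh at 0.0179, Foxl1 at 0.03 and Gli2 at 0.038 were nearer the threshold, and leaving out single samples ended the call in 2, 5 and 13 of 46 fits, with adjusted p up to 0.0734, 0.0581 and 0.091. Without the low-count filter the call for Gli2 was lost (0.106). With all 48 samples, Ihh and Pdgfra alone kept the call, and Gli1, Gli2, Hhip, Foxf1, Foxl1 and Bmp4 had adjusted p from 0.0883 to 0.361. Ptch1 (0.753) and Shh (0.154) did not pass.

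Pdgfra was 1 example of this dependence, though not every gene shared its course. Its duodenum and ileum samples overlapped at day 0 and day 2. Every ileum sample was above every duodenum sample from day 4 to week 3, and the samples overlapped again at week 4. The difference of the mean log2 values, ileum minus duodenum, started from -0.56 on day 0, reached 2.01 on day 4 and 4.73 on day 6, and was 4.34 on day 8, 1.71 in week 3 and 0.80 in week 4. For Gli1, every ileum sample was above every duodenum sample already at day 0 (difference 1.82) and still at week 4 (1.63). Its samples overlapped at day 2 and day 4. For Ihh, every duodenum sample was above every ileum sample at day 2, day 8 and week 2, and the order was reversed at week 3.

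**Figure D3:**
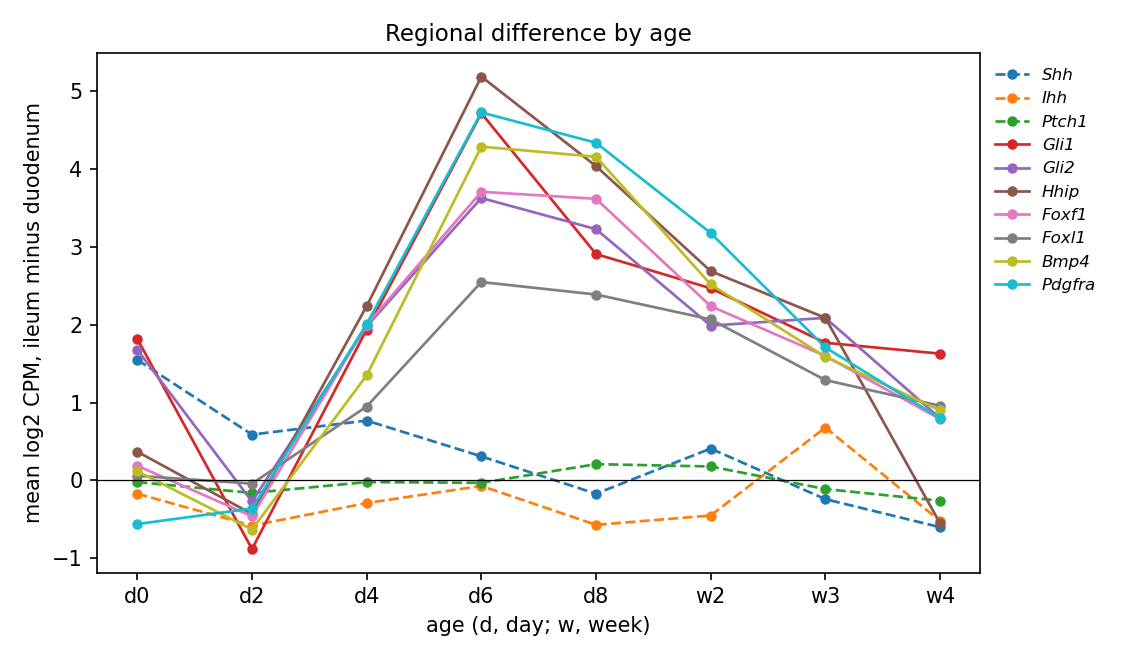
Difference of mean log2 CPM, ileum minus duodenum (vertical axis), against age for each gene, with dashed lines for Shh, Ihh and Ptch1. The 7 genes with solid lines peak at day 6 between 2.55 and 5.19 and lie between -0.55 and 1.63 at week 4, while Ptch1 stays between -0.26 and 0.21.

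These 7 genes, grouped after their values were seen, had like courses over the 16 group means. Their pairwise Pearson correlations of mean log2 CPM ran from 0.86 to 0.98, a description over groups that share libraries and scaling. Ptch1 correlated with them at 0.20 to 0.44, Shh at 0.04 to 0.25 and Ihh at -0.29 to -0.18, and Ihh with Ptch1 at -0.62. Among 12356 genes compared over the 16 groups, those nearest Gli1 were Tgfb1i1 (0.97), Col6a1, Cavin1 and Col5a2 (0.96 each) and Lama5 (0.95), which include collagen and laminin genes. Those nearest Ihh were Cyhr1 and Kif1c (0.91 each), Map3k11 (0.89), Sec14l1 (0.88) and Tmem98 (0.87).

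Marker sums of other cells differed over the same groups. The 8 fibroblast markers summed to 187 ± 64.7 CPM in the duodenum at day 0, 59.2 ± 29 at day 8 and 68.9 ± 38.1 at week 4, and to 337 ± 74.8, 381 ± 135 and 207 ± 67.9 in the ileum. The 4 endothelial markers stood at 135 ± 42.5, 9.68 ± 2.42 and 8.43 ± 0.549 CPM at these ages in the duodenum, and at 123 ± 73.9, 52.6 ± 5.91 and 24.9 ± 15.1 CPM in the ileum. The 5 markers of enteric neurons and glia ranged from 2.76 to 9.8 CPM in the duodenum and 3.2 to 26.5 CPM in the ileum, and the 7 pancreatic acinar markers from 0.0707 to 548 and from 0 to 24.3 CPM. The 4 immune markers ranged from 26 to 139 and from 21.3 to 278 CPM, and the 2 of 3 fat cell markers that were tested from 41.7 to 225 and from 16.8 to 124 CPM. Divided by transcript length, the highest fat cell sums were 121 and 66.6 CPM per kilobase. That is near what Cidec alone, with 1856 bases of exon, would give. The sum was thus mostly 1 gene and is no measure of fat cells. Every tested marker had more than 3 counts in at least 1 sample. The part of these cell types in the gene changes was not tested.

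Set against the fibroblast sum, Pdgfra was 23.9% ± 3.01 of that sum in the day 0 duodenum, 1.92% ± 0.691 at day 8, 6.28% ± 2.37 at week 3 and 2.25% ± 2.07 at week 4 (SD, n = 3). In the ileum it was 8.78% ± 0.941 at day 0, 6.02% ± 1.98 at day 8, 5.6% ± 1.51 at week 3 and 0.992% ± 0.34 at week 4. Foxf1 in the duodenum was 4.25% ± 0.262 of the sum at day 0 and 1.06% ± 0.0994 at day 8, stood again at 4.3% ± 1.2 at week 3, and was 1.6% ± 0.526 at week 4. Gli1 there was 0.713% ± 0.401, 0.465% ± 0.178, 0.96% ± 0.466 and 0.536% ± 0.0741 at these ages, and its ranges overlapped. Against the endothelial sum, Foxf1 in the duodenum was 5.9% ± 0.463 at day 0, 6.18% ± 0.966 at day 8, 7.54% ± 2.98 at week 3 and 11.6% ± 3.22 at week 4, while Pdgfra was 33% ± 2.66, 10.6% ± 1.89, 11% ± 5.15 and 13% ± 4.1.

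**Figure D4:**
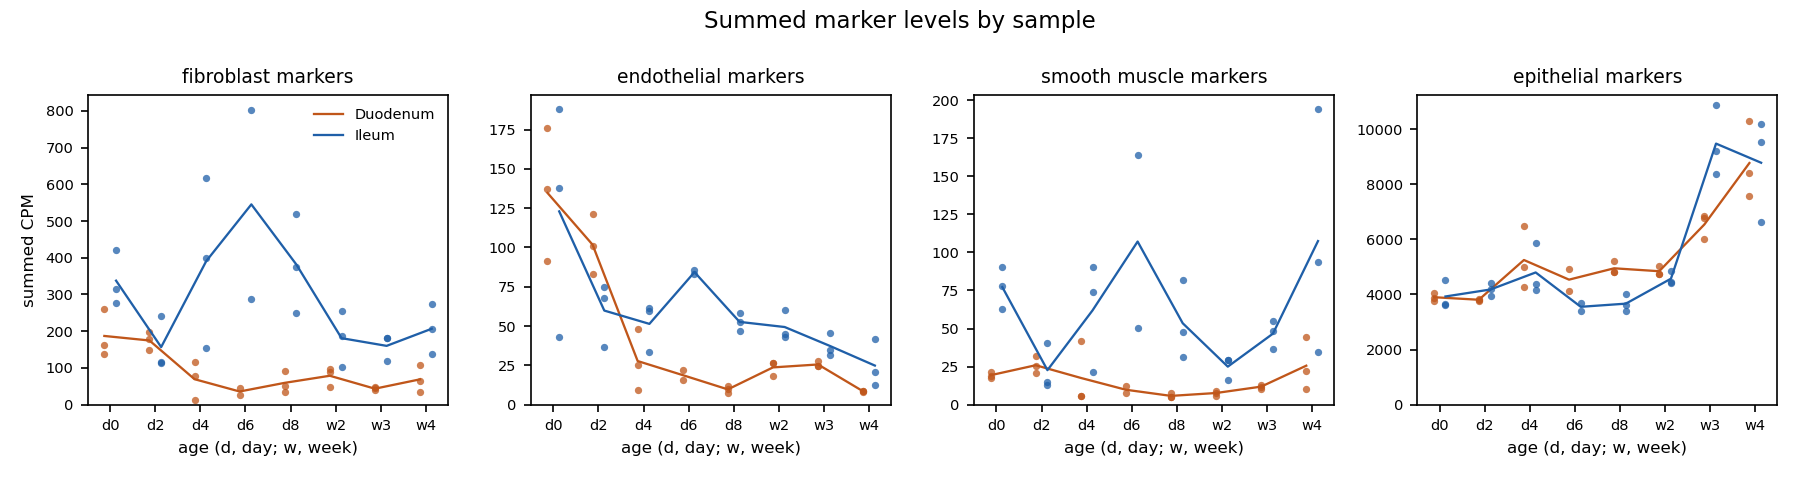
Summed CPM (linear axes from 0) of the fibroblast, endothelial, smooth muscle and epithelial markers against age, with 1 point per sample and a line through the group means, duodenum in orange and ileum in blue. Duodenum means are 135 CPM (endothelial) and 187 CPM (fibroblast) at day 0 against 9.68 and 59.2 CPM at day 8, while epithelial sums are highest at week 3 and week 4.

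The rest of the hedgehog pathway was followed with 15 further genes. At week 4 against day 0, 5 were lower and 1 higher in the duodenum, and 4 were lower in the ileum, with median log2 changes of -0.88 and -0.56 (all genes, 20.1% lower and 20.4% higher in the duodenum and 20.4% lower in the ileum). Smo, the transducer released by Ptch1, rose in the duodenum from 4.97 ± 0.736 to 9.85 ± 1.31 CPM (0.98 ± 0.27, adjusted p = 0.00291). Gli3, mainly a repressor of targets, fell there by 2.39 ± 0.76 on the log2 scale, used for all changes below (adjusted p = 0.0105). Gpr161, a ciliary receptor that restrains the pathway, fell by 2.02 ± 0.46 in the duodenum and by 1.66 ± 0.45 in the ileum (adjusted p = 4.75e-04 and 0.00291). Disp1, which releases ligand from the cells that make it, fell by 1.01 ± 0.22 and by 0.82 ± 0.22 (adjusted p = 2.81e-04 and 0.00281), and Evc2, which relays Smo signals at the cilium, fell by 3.90 ± 0.75 in the ileum (adjusted p = 4.91e-05).

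Among 17 further BMP pathway genes, 5 were higher and 5 lower at week 4 than at day 0 in the duodenum, and 8 higher and 4 lower in the ileum, with 20.4% of all genes higher and 20.1% lower in the duodenum and 21.5% higher and 20.4% lower in the ileum. The ligand Bmp7 fell in both regions, the duodenum going from 48.7 ± 9.53 to 4.64 ± 0.712 CPM and the ileum from 68.9 ± 16.2 to 5.05 ± 1.07 CPM (adjusted p = 2.83e-16 and 2.70e-17). Bmp5, another ligand, fell by 4.70 ± 0.54 and by 3.18 ± 0.50 on the log2 scale (adjusted p = 4.21e-09 and 2.08e-06). Id1, a transcriptional target of BMP receptors, rose instead, with duodenum levels of 12.2 ± 4.06 and then 64.3 ± 6.43 CPM and ileum levels of 13 ± 3.15 and then 82.4 ± 10.2 CPM (adjusted p = 2.63e-12 and 1.83e-13). Id3, of the same family, rose by 2.37 ± 0.22 and 2.67 ± 0.23, and Smad7, an inhibitory SMAD, by 1.09 ± 0.22 and 1.51 ± 0.23 (adjusted p at most 1.27e-04 for these 4 changes). Not all of that family rose. Id2 fell in the ileum, from 66.2 ± 31.5 to 34.5 ± 11.7 CPM (-0.94 ± 0.23, adjusted p = 9.40e-04). Smad5 fell by 0.89 ± 0.16 in the duodenum (adjusted p = 2.64e-05). The medians of the list were 0.20 and 0.71.

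Of 15 tested genes of the subepithelial mesenchyme, 7 were lower and 2 higher in the duodenum, and 5 were lower in the ileum, at week 4 against day 0, with medians of -0.50 and -0.01. Over all genes the shares were 20.1% lower and 20.4% higher in the duodenum and 20.4% lower in the ileum. Foxf2, the paralog of Foxf1, fell by 4.21 ± 0.57 and by 2.56 ± 0.51 (adjusted p = 1.14e-07 and 9.19e-05). Cd34, a surface protein of fibroblasts and vessels, fell by 3.57 ± 0.44 and by 2.62 ± 0.43 (adjusted p = 2.75e-08 and 4.42e-06). Pdgfrb, the other PDGF receptor, fell by 2.89 ± 0.36 in the duodenum (adjusted p = 2.01e-08), and Hlx, a homeobox factor of gut mesenchyme, by 2.69 ± 0.57 in the ileum (adjusted p = 1.96e-04). Pdgfa, the epithelial ligand of Pdgfra, rose in the duodenum from 53.6 ± 7.76 to 73.8 ± 9.88 CPM (0.46 ± 0.17, adjusted p = 0.0277), and Cd81, a tetraspanin, rose by 1.29 ± 0.17 (adjusted p = 5.99e-08). At day 8 against day 0, 10 of the 15 were lower in the duodenum (19.2% of all genes) and 1 in the ileum (10.7%).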

How the data were processed

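Estimated counts per gene were deposited by the authors as whole numbers in 1 table of all samples, summarised with tximport per the file's name. The submitters' processing notes name mm10, STAR 2.6.1d, Salmon 0.14.2 and DESeq2 1.30.1. The deposited normalized signal of 40 samples, which the authors scaled by 1 factor per column, gave the symbols only. The 8 samples it lacks are those of day 4 and those labelled day 6 number 3. Counts were tested in R 4.3.3 with edgeR 4.0.16 (TMM scaling, filterByExpr, robust quasi-likelihood F tests) in 1 fit with 1 mean per region and age, without a replicate block. P-values were adjusted by Benjamini-Hochberg over all 21986 genes tested in each of 14 comparisons, with a threshold of 0.05. CPM used TMM-scaled totals, and log2 CPM a prior count of 2. Exon lengths and coordinates came from GENCODE M21 (GRCm38). Fitting was tested on simulated data, with a log2 change of 2 in 200 genes of the week 4 duodenum. The duodenum test of week 4 against day 0 recovered 67.5% of them, and 4.93% of its calls were false. A gene that did not pass may thus still have changed. Alternatives included DESeq2 1.42.0, other scalings and filters, all 48 samples, a replicate block, and leaving out each sample. Named were the 10 genes, up to 3 rises and 3 falls per pathway list and region, and the 5 genes most like Ihh and Gli1. Members and lists were chosen with earlier results of these data known.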

Additional observations from a re-analysis of the deposited data

Results flagged for a closer look

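For 8 genes the course over age differed between duodenum and ileum by the interaction test in edgeR. The adjusted p was 5.93e-08 for Pdgfra, 1.75e-05 for Foxf1, 2.29e-05 for Hhip, 4.26e-04 for Bmp4, 0.00227 for Gli1, 0.0179 for Ihh, 0.03 for Foxl1 and 0.038 for Gli2.

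The samples left out of the fit carried signal of their own. In duodenum day 6 number 3, as labelled, Pdgfra was at 33 CPM, where the other day 6 duodenum samples were at 1.33 and 1.59 CPM. In ileum day 6 number 3 it was at 2.05 CPM, where the other day 6 ileum samples were at 43.4 and 37.2 CPM. Bmp4 was at 13.1 and 0.81 CPM in the same pair, and Hhip at 9.5 and 0.469 CPM. Gli2 did not follow, at 1.15 and 1.83 CPM.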

How the results depend on the processing

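Of 3207 repeats of the 140 gene results, 3100 kept their side of the threshold, 78 lost the call and 29 gained it. In 0 repeats did the direction change with an adjusted p under 0.05 in the main fit or the repeat. Direction was not followed where neither passed, and the age effect and interaction tests have none. With all 48 samples, 4 genes passed the age effect in the ileum, 2 the interaction, 1 the week 4 against week 3 step in the ileum and 0 in the duodenum. Without the 8 samples that the normalized tables lack, 1 gene passed week 2 against day 8 in each region, 2 passed week 4 against week 3 in the duodenum and 4 week 3 against week 2 in the ileum. That last step had 4 genes with library totals, 2 with a mean count of at least 10 and 3 with only the compared groups, which in the ileum gave 2 for week 2 against day 8 and 1 for week 4 against week 3. Without the low-count filter, 0 passed week 4 against week 3 in the duodenum. The cause of these changes was not tested.

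The replicate block also gave 0 genes for week 4 against week 3 in the duodenum (Pdgfra adjusted p = 0.0607), 0.0585 for the age effect of Ihh in the duodenum and 0.0847 for the Foxl1 interaction, and it changed no other call. Same-numbered duodenum and ileum samples correlated at -0.363 to 0.672 in their deviations, over 0.1 in 16 of 23 pairs. The mean was 0.16, beside -0.08 for pairs with different numbers. Deviations from a group mean sum to 0, so the second mean largely follows from the first and is no separate measure. Not every pair was over 0.1, so the numbers were not taken to pair samples.

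Leaving out single samples gave 8 to 9 genes for the age effect in each region, 6 to 9 (duodenum) and 7 to 9 (ileum) for week 4 against day 0, 7 in every fit and 0 to 1 for day 8 against day 0, and 0 in every fit for week 2 against day 8. It gave 0 in every fit and 1 to 2 for week 3 against week 2, 0 to 1 and 2 to 4 for week 4 against week 3, 8 to 9 for the averaged region effect and 6 to 8 for the interaction. The age effect of Ihh in the duodenum was lost in 6 of these fits and that of Foxl1 in the ileum in 4.

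Over all genes, 3448 calls for week 2 against day 8 in the duodenum became 1528 with all 48 samples, 6278 with the compared groups and 825 at the lowest without 1 sample. In the ileum 1460 became 886 without the filter, 417 with all 48, 3037 without the 8 samples, 3472 with the compared groups and 60 at the lowest without 1 sample. For week 4 against week 3, 2794 became 4568 without the 8 samples and 1706 at the lowest in the duodenum, and 3534 became 5675 with library totals, 1527 with the compared groups and 2331 at the lowest in the ileum. Day 8 against day 0 in the ileum fell from 4234 to 2639 at the lowest, and the interaction count of 4930 became 947 with all 48 and 9512 without the 8 samples.

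Library totals moved the median log2 change of all genes from -0.02 to -0.24 and the share of higher calls from 50.3% to 35.4% for week 4 against day 0 in the duodenum (0.08 to -0.15 and 51.2% to 36.1% in the ileum). For week 4 against week 3 the median moved from -0.04 to -0.27 and the share from 61% to 26.1% (ileum 0.00 to -0.23, 51.4% to 25.2%). In the ileum the share moved from 44.4% to 62.4% at day 8 and from 48.3% to 31.2% at week 3 against week 2, and for the averaged region effect from 51.4% to 69.5%. Shh, Gli2 and Foxl1 were limited by depth, with as few as 3, 0 and 0 counts in a sample.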
